A study of Mus musculus with 12 samples.

Results

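Genes that mark or control the trophectoderm were followed across 4 groups of mouse embryonic stem cells. The 10 genes were Cdx2, Eomes, Elf5, Gata3, Tfap2c, Tead4, Hand1, Krt7, Krt8 and Krt18, and each had at least 1 array probe set annotated to that gene alone, so that 10 of 10 were read, of 22180 genes measured. Gata3 and Krt18 each had 2 such probe sets, of which the brighter on average was used. The genes were chosen by name for their known roles, at a point when earlier results of these data were known. RNA was hybridised to 12 Affymetrix arrays, 3 per group, and every value below is a normalized log2 signal, on which a difference of 1 is a 2-fold change.

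Every group had the same reporter genotype, MERVL::tdTomato, in which a retroviral element active in 2-cell embryos drives a red fluorescent protein. The groups were the reporter line itself (parental), its derivative lacking Dppa2/4 (KO), and that derivative transfected by lipofection with both proteins fused to GFP, in wild-type form (KO+WT) or in a mutant form deficient in SUMO modification (KO+Mut), then sorted for GFP. Both proteins bind DNA in pluripotent cells, and SUMO is a peptide tag that cells attach to many nuclear proteins. All cultures were kept on gelatin with serum replacement and LIF; the labels mention transfection and sorting for the add-back groups alone, and they do not say how many clones the KO line stands for or how the 3 biological replicates of a group were separated, so p-values measure the spread between these arrays. Dppa2 signal lay between 8.13 and 8.69 in KO, 9.35 and 10.17 in parental, 10.79 and 11.34 in KO+WT, then 11.12 and 11.30 in KO+Mut cells. Dppa4 lay between 7.31 and 7.92, 8.24 and 8.58, 10.09 and 10.58, and 10.39 and 10.67 in the same order. The labels and files do not say whether these probes lie in the deleted stretch, so the residual KO signal does not check the knockout. All 9 measured markers of 2-cell-like cells were higher in both add-backs than in KO cells. In each, 8 had a limma adjusted p below 0.05 (0.83% and 1.27% of all genes). These 8 were higher by 2.42 to 8.49 in KO+WT and 2.71 to 9.04 in KO+Mut (highest adjusted p = 0.00343 and 0.000646). Against parental cells 8 of 9 were lower in KO (median -1.36), 2 of them below 0.05 (0.239% of all genes). In KO+WT and KO+Mut 8 were above parental levels at that threshold (0.55% and 0.992% of all genes), with list medians of 3.95 and 4.57.

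The trophectoderm is the outer epithelium of the blastocyst and gives rise to the placental trophoblast. In the mouse embryo Tead4, with its Hippo-controlled partner Yap1, switches on Cdx2 and Gata3 in outer cells, Cdx2 opposes the pluripotency factor Oct4, and Eomes, Elf5 and Tfap2c keep trophoblast stem cells dividing. Hand1 acts later, in giant cells, and is also a gene of extraembryonic and cardiac mesoderm. Keratins 7, 8 and 18 build the intermediate filaments of this first epithelium. Embryonic stem cells derive from the inner cell mass and rarely form trophoblast, although Tfap2c and Tead4 are transcribed in them as well.

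None of the 10 genes passed the test (limma, Benjamini-Hochberg adjusted p below 0.05 over all 22180 genes) in any of the 6 comparisons between groups. Of the 60 differences, 6 had an unadjusted p below 0.05, and the smallest adjusted p was 0.175. Over all genes, the share past the threshold was 0.239% for KO against parental cells, 0.83% for KO+WT and 1.27% for KO+Mut against KO, 0% for KO+Mut against KO+WT, and 0.55% and 0.992% for KO+WT and KO+Mut against parental cells. With shares this small, 0 of 10 is near the background. The largest difference was 0.94, and 0 of 60 reached 1. The 95% intervals had half-widths between 0.27 (Gata3) and 0.99 (Tfap2c) and a median of 0.40, and 12 of the 60 intervals reached a 2-fold change in one direction or the other.

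**Figure D1:**
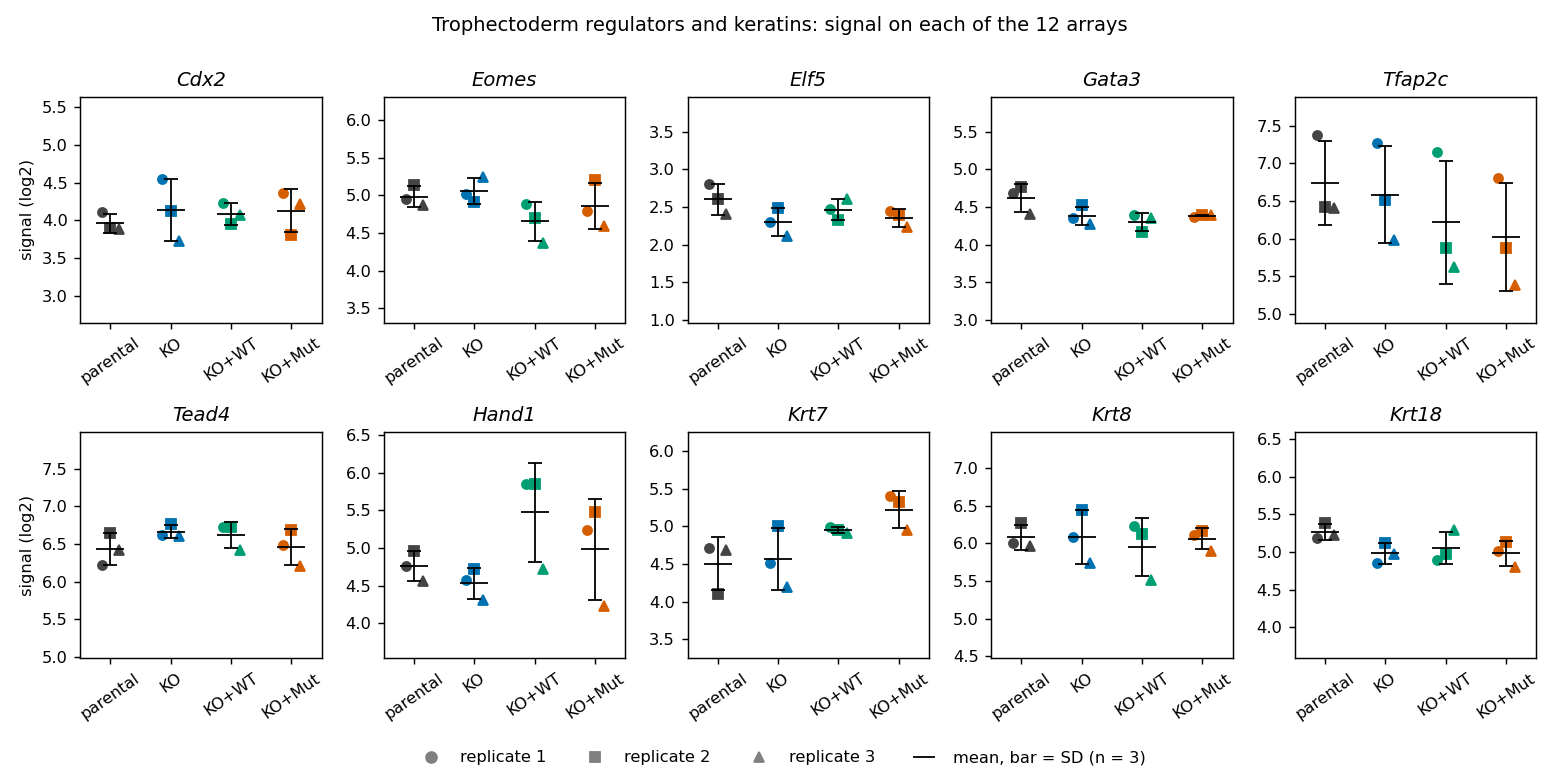
Signal (log2) of the 10 genes on each of the 12 arrays, by group; symbols mark the replicate number, and the horizontal line with its bar is the mean and SD of 3 arrays. Each vertical axis spans the same log2 distance around its own gene. Tfap2c was highest on replicate 1 in all 4 groups, and Krt7 was higher on all KO+Mut arrays (4.95 to 5.41) than on all parental arrays (4.10 to 4.72).

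Tead4, the transcription factor at the head of the trophectoderm pathway, read 6.22, 6.65 and 6.42 on parental replicates 1, 2 and 3, 6.62, 6.76 and 6.60 on KO, 6.72, 6.72 and 6.42 on KO+WT, then 6.49, 6.68 and 6.21 on KO+Mut arrays. All 4 groups overlapped. The widest gap between groups was that of KO over parental cells, 0.23 (SE 0.15, limma adjusted p = 0.889, 95% interval -0.10 to 0.56). The group mean was highest in KO, followed by KO+WT, KO+Mut and parental cells, and no neighbours in that order were apart.

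Cdx2, the homeobox gene that commits outer cells to trophectoderm, read 4.11, 3.90 and 3.89 in parental, 4.55, 4.13 and 3.73 in KO, 4.23, 3.95 and 4.07 in KO+WT, then 4.36, 3.81 and 4.22 in KO+Mut cells. The KO arrays spanned the values of all other groups. The 6 differences lay between -0.05 and 0.17, against an interval half-width of 0.42. Its group means spanned 0.17, less than the pooled SD within groups of 0.27.

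Gata3, a zinc-finger factor that acts beside Cdx2, read 4.68, 4.76 and 4.40 in parental, 4.35, 4.52 and 4.27 in KO, 4.39, 4.17 and 4.35 in KO+WT, then 4.37, 4.39 and 4.39 in KO+Mut cells. Both add-back groups lay narrowly below all parental arrays, while KO cells overlapped with them. KO+WT differed from parental cells by -0.31 (SE 0.12, limma adjusted p = 0.387) and KO+Mut by -0.23 (adjusted p = 0.526). A second Gata3 probe set, read between 3.74 and 4.03, gave -0.06 and -0.10 for the same differences.

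Eomes, a T-box factor needed for trophoblast to proliferate and later for endoderm and mesoderm, read 4.95, 5.14 and 4.87 in parental, 5.02, 4.91 and 5.25 in KO, 4.89, 4.70 and 4.37 in KO+WT, then 4.79, 5.20 and 4.60 in KO+Mut cells. The 3 KO+WT arrays lay below the 3 KO arrays, the closest of them narrowly. That difference was -0.41 (SE 0.18, 95% interval -0.79 to -0.02, limma adjusted p = 0.384). KO+Mut arrays overlapped with both groups, at -0.20 from KO and 0.21 from KO+WT.

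Elf5, an ETS factor that is kept silent by DNA methylation in embryonic stem cells, read 2.80, 2.60 and 2.40 in parental, 2.30, 2.49 and 2.12 in KO, 2.47, 2.33 and 2.60 in KO+WT, then 2.45, 2.39 and 2.23 in KO+Mut cells. These values surround the arrays' lower quartiles (2.36 to 2.47), and no detection call was used to tell a transcript from background. KO cells differed from parental cells by -0.29 (SE 0.14, limma adjusted p = 0.754), and every pair of groups overlapped.

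Tfap2c, an AP-2 factor of trophoblast, germ cells and pluripotent cells, read 7.38, 6.42 and 6.41 in parental, 7.27, 6.51 and 5.98 in KO, 7.15, 5.88 and 5.63 in KO+WT, then 6.81, 5.88 and 5.39 in KO+Mut cells. The groups overlapped throughout, and the replicate number separated the arrays more than the group did. Replicate 1 was highest and replicate 3 lowest in all 4 groups, with means of 7.15, 6.17 and 5.85 for replicates 1, 2 and 3. The number accounted for 76.7% of the sum of squares of Tfap2c over the 12 arrays and the group for 19.9%; the medians over all genes were 23.0% and 29.2%. Replicate 1 was highest in all 4 groups for 6.5% of all genes, and replicate 3 lowest in all 4 for 9.37%. Array for array, KO+Mut minus parental signal was -0.57, -0.54 and -1.01 for numbers 1, 2 and 3. The mean difference of -0.71 had an SE of 0.46 and a limma adjusted p of 0.62, and ran from -0.39 without parental replicate 1 to -1.10 without KO+Mut replicate 1. With the replicate number as a block, which the arrays of these 2 groups bore out as a pairing, the SE was 0.13 and the adjusted p 0.0202. In that blocked fit Tfap2c fell, as 1 of the 10 genes past the threshold, beside 3.13% of all genes. The blocked shares over all genes in the other comparisons were 0.618% for KO against parental, 2.23% and 3.23% for KO+WT and KO+Mut against KO, 0% between the add-backs and 2.06% for KO+WT against parental cells. KO+WT lay -0.23, -0.54 and -0.78 from parental cells at the same numbers (blocked adjusted p = 0.0801), and KO lay -0.11, 0.09 and -0.43 from them.

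**Figure D2:**
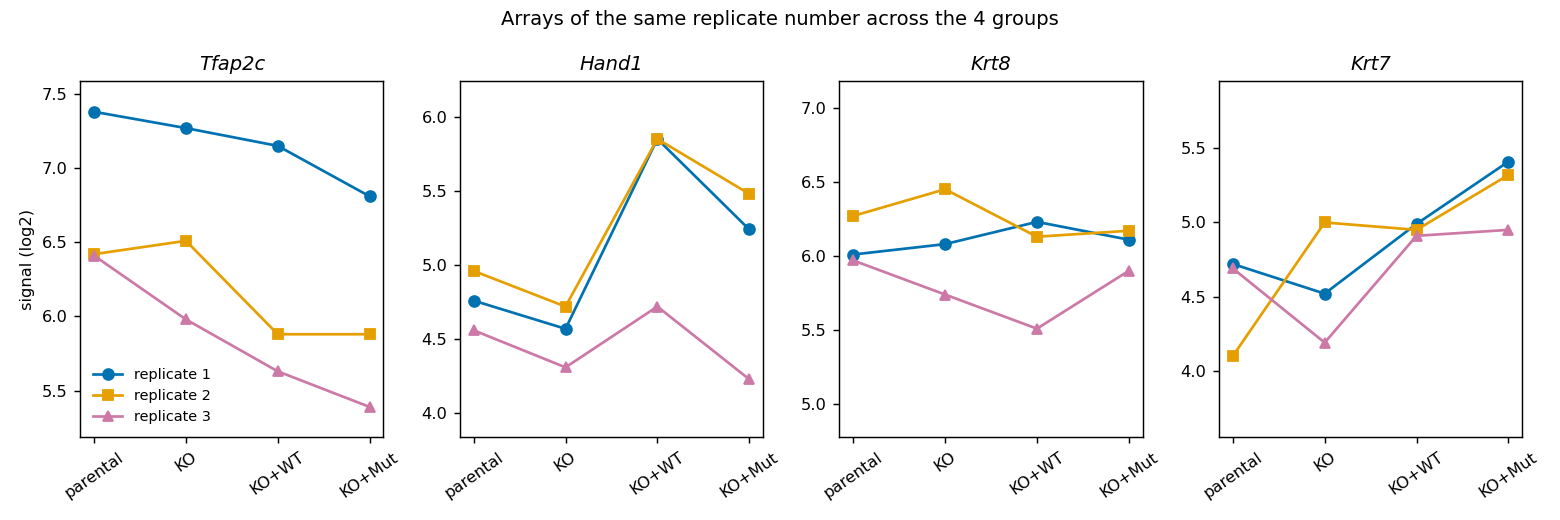
Signal (log2) of Tfap2c, Hand1, Krt8 and Krt7 in the 4 groups, with arrays of the same replicate number joined by lines; the axes span the same log2 distance. The Tfap2c line of replicate 1 lay above the others in each group, between 6.81 and 7.38, while those of replicates 2 and 3 met in parental cells (6.42 and 6.41), and the Hand1 line of replicate 3 was the lowest in each group.

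Hand1, a basic helix-loop-helix factor of trophoblast giant cells and mesoderm, read 4.76, 4.96 and 4.56 in parental, 4.57, 4.72 and 4.31 in KO, 5.85, 5.85 and 4.72 in KO+WT, then 5.24, 5.48 and 4.23 in KO+Mut cells. In both add-back groups replicates 1 and 2 lay above every parental and KO array, and replicate 3 lay within or below the range of those arrays. KO+WT differed from KO by 0.94 (SE 0.33, 95% interval 0.23 to 1.65, limma adjusted p = 0.269), the largest of the 60 differences. It ran from 0.75 without KO+WT replicate 1 to 1.32 without KO+WT replicate 3 (limma adjusted p = 0.0795 for the latter). KO+Mut differed from KO by 0.45 (adjusted p = 0.645), by 0.20 without KO+Mut replicate 2 (adjusted p = 0.894) and by 0.83 without KO+Mut replicate 3 (adjusted p = 0.28). Against parental cells KO+WT stood at 0.71 (limma adjusted p = 0.465) and KO+Mut at 0.22, which was -0.03 without KO+Mut replicate 2 and 0.60 without KO+Mut replicate 3.

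Markers of early mesoderm, where Hand1 is also transcribed, were read beside it. Of 9 measured, 8 were positive in KO+WT against KO (median 0.32, with the median of all genes close to 0) and 8 in KO+Mut against KO (median 0.29). The forkhead gene Foxf1 passed the test in both, at 0.69 and 0.67 (limma adjusted p = 0.0499 and 0.0456), and Snai1, a repressor of epithelial genes, passed in KO+Mut at 1.40 (adjusted p = 0.0177), while KO+WT stood at 1.12 (adjusted p = 0.0769). Snai1 read 6.42, 7.11 and 6.51 in KO+Mut against 5.48, 5.51 and 4.86 in KO cells, and was also higher in KO+Mut than in parental cells, by 1.26 (adjusted p = 0.0375). The level of the list, as its mean per array, ran from 3.99 to 4.13 in parental, 3.83 to 3.99 in KO, 4.19 to 4.41 in KO+WT and 4.21 to 4.45 in KO+Mut cells. Both comparisons share the KO arrays, and KO was itself below parental cells for 7 of the 9 (median -0.14). Against parental cells 7 of 9 were positive in KO+WT (median 0.18) and 5 of 9 in KO+Mut (median 0.13). When single arrays were left out, the call of Foxf1 in KO+WT held in 0 of 6 (adjusted p 0.05 without KO+WT replicate 3, and 0.125 to 0.158 without any other) and in KO+Mut in 0 of 6 (0.0901 to 0.16). Both Foxf1 calls were also lost when arrays were centred on their medians (adjusted p = 0.0952 and 0.0842). That of Snai1 against KO was lost without KO replicate 3 (adjusted p = 0.0826) or KO+Mut replicate 2 (0.097), and against parental cells in 6 of 6 (0.0552 to 0.181). Their part in the Hand1 values was not tested. In RNA from whole cultures, more cells of a type and more RNA per cell cannot be told apart.

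The 3 keratin genes lie in 1 cluster on chromosome 15, and their upstream sequences are shown because they carry different numbers of the motif bound by the family of Tfap2c. Each window holds the 250 bases before the annotated start (RefSeq, GRCm38.p6), Krt7 at chr15:101412153-101412402 on the plus strand, Krt8 at chr15:102004343-102004592 on the minus strand and Krt18 at chr15:102027966-102028215 on the plus strand. Capitals mark GCCNNNGGC, the palindromic motif of AP-2 factors such as Tfap2c, which reads the same on both strands.
Krt7: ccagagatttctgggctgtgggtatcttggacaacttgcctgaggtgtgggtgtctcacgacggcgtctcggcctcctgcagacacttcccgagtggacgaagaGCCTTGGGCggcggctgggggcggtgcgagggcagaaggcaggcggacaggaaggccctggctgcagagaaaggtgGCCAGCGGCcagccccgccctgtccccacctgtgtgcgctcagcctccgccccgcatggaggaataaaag
Krt8: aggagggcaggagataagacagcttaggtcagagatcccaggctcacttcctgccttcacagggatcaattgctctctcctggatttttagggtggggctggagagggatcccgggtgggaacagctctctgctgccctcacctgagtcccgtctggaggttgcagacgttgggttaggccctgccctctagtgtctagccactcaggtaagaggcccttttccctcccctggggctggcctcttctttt
Krt18: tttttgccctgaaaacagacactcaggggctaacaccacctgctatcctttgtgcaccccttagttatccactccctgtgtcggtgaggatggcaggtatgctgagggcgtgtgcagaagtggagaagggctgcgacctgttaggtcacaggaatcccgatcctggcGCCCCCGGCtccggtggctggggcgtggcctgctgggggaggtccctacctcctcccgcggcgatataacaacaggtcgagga
The motif occurred 2 times before Krt7, starting 146 and 70 bases from the start, 1 time before Krt18, at 83 bases, and not in the Krt8 window; no matches overlapped. It occurred in 13.7% of all 32851 windows of this length, and 2 or more times in 2.02%. CG dinucleotides numbered 16 before Krt7, 3 before Krt8 and 12 before Krt18, with a median of 6 over all windows. Of the other regulators, windows were matched for Cdx2, Eomes, Elf5 (with 2 starts) and Gata3; Cdx2 held 1 match and Gata3 held 3. A match describes the letters and no binding was measured. No window was available for Tfap2c, Tead4 and Hand1, so these genes were not searched for the motif.

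Krt7, a keratin of simple and glandular epithelia, read 4.72, 4.10 and 4.69 in parental, 4.52, 5.0 and 4.19 in KO, 4.99, 4.95 and 4.91 in KO+WT, then 5.41, 5.32 and 4.95 in KO+Mut cells. Every add-back array lay above every parental array, and KO replicate 2 reached into the add-back range. KO+Mut differed from parental cells by 0.72 (SE 0.21, 95% interval 0.26 to 1.18, limma adjusted p = 0.175) and from KO by 0.66 (adjusted p = 0.202). KO+WT stood at 0.45 from parental (adjusted p = 0.487) and 0.38 from KO (adjusted p = 0.511). Without KO replicate 2 the KO+Mut difference from KO was 0.87 (adjusted p = 0.0949) and without KO replicate 3 it was 0.47 (0.471).

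Krt8 and Krt18 encode the obligate partners of the earliest keratin filaments in the embryo. Krt8 read 6.01, 6.27 and 5.97 in parental, 6.08, 6.45 and 5.74 in KO, 6.23, 6.13 and 5.51 in KO+WT, then 6.11, 6.17 and 5.90 in KO+Mut cells. Its groups overlapped in all 6 comparisons, with differences between -0.13 and 0.11 against a half-width of 0.45, and replicate 3 was the lowest in each group. Krt18 read 5.19, 5.39 and 5.23 in parental, 4.85, 5.12 and 4.98 in KO, 4.89, 4.98 and 5.29 in KO+WT, then 5.02, 5.13 and 4.80 in KO+Mut cells. All KO and all KO+Mut arrays lay below all parental arrays, and KO+WT replicate 3 lay within the parental range. KO differed from parental cells by -0.29 (SE 0.14, limma adjusted p = 0.759), and so did KO+Mut (adjusted p = 0.473). A second Krt18 probe set gave -0.22 and -0.15. Keratins 8 and 18 have processed pseudogenes, and the files do not say whether the probes separate genes from copies, so both values are uncertain to that extent.

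Krt8 and Krt18 are also keratins of primitive and visceral endoderm, whose markers were read beside them. Of 15 measured, 14 were negative in KO against parental cells (median -0.56, against 0.00 for all genes). Of the 15, 0 were past the threshold (0.239% of all genes) and 10 at an unadjusted p below 0.05 (6.94% of all genes). The list mean per array was 5.76 to 6.32 in parental, 5.25 to 5.66 in KO, 5.34 to 5.44 in KO+WT and 5.23 to 5.36 in KO+Mut. The laminin genes Lama1 and Lamb1 fell below parental levels in KO+WT, by 0.94 and 0.92 (limma adjusted p = 0.0477 and 0.0222), with adjusted p = 0.0301 and 0.0107 for falls of 0.95 in each under KO+Mut. With the replicate block 2 of the 15 passed in KO against parental cells (0.618% of all genes). In KO+WT and KO+Mut against parental cells 5 passed in each (2.06% and 3.13% of all genes). Fits without 1 array kept the KO+WT calls of Lama1 in 1 of 6 and of Lamb1 in 2 of 6, with adjusted p up to 0.194 and 0.0902 (both without parental replicate 2), and the KO+Mut calls in 1 and 5 of 6, with adjusted p up to 0.141 (without parental replicate 3) and 0.0527 (without KO+Mut replicate 3). Their part in the Krt18 values was not tested.

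**Figure D3:**
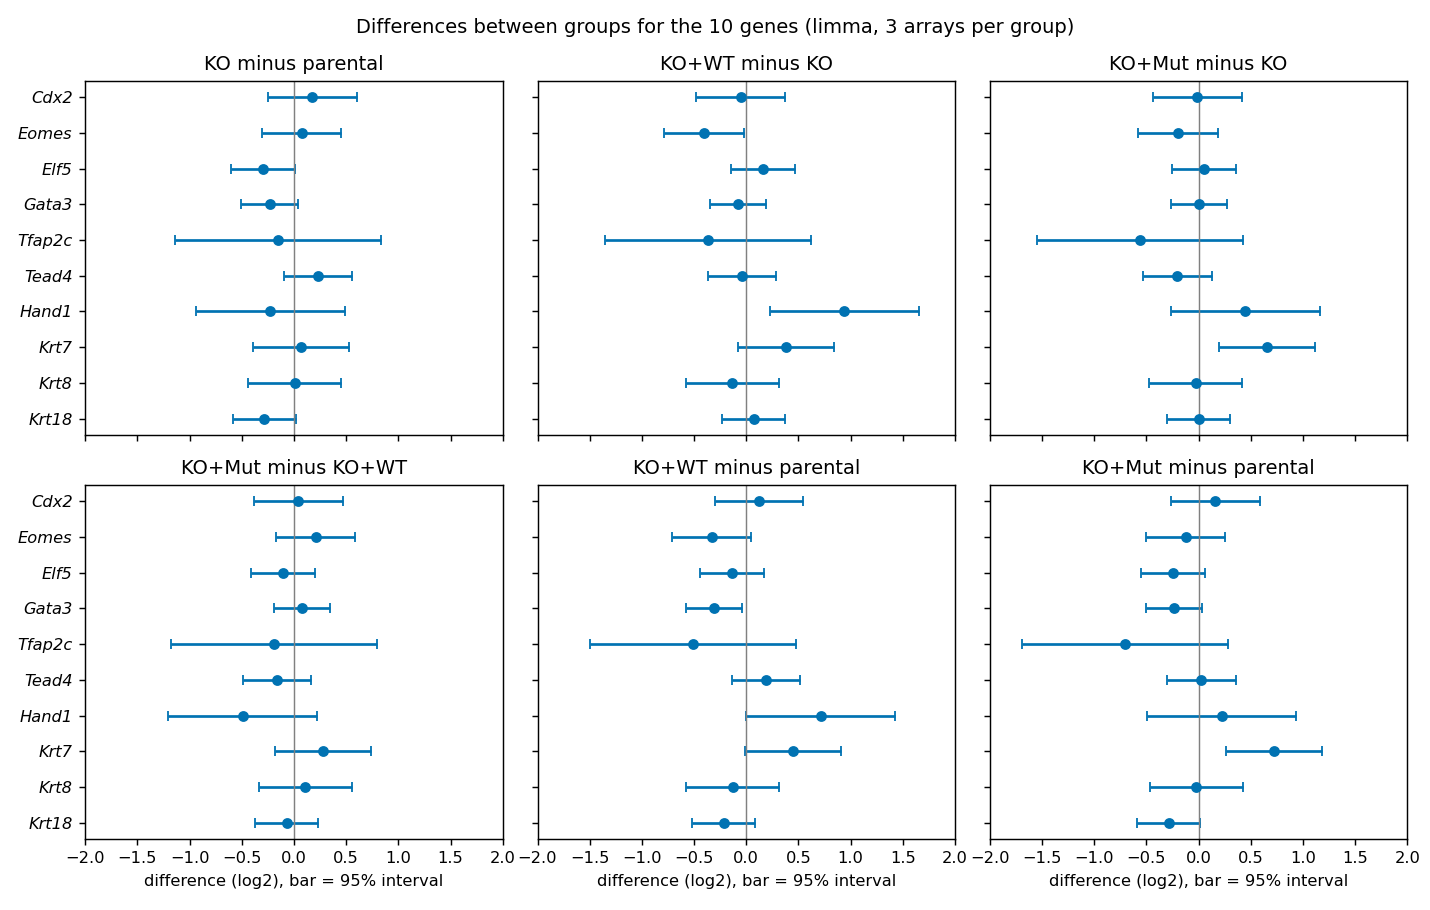
Differences in signal (log2) between groups for the 10 genes in the 6 comparisons; points are limma estimates and bars their 95% intervals, before any adjustment for the number of genes. Hand1 in KO+WT minus KO (0.94) and Krt7 in KO+Mut minus parental (0.72) lay farthest above 0, and Tfap2c had the widest bars.

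Knocking out Dppa2 and Dppa4 asked whether trophectoderm genes depend on them. Between KO and parental cells the 10 differences ran from -0.29 (Elf5) to 0.23 (Tead4), 5 in each direction, with a median of -0.07 against 0.00 for all genes. None passed and 0 had an unadjusted p below 0.05, against 6.94% of all genes. The ranges did not overlap for 1 of the 10, Krt18, against 12.9% of all genes.

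Adding back the proteins asked whether they raise or lower these genes in KO cells. Both comparisons share the KO arrays. With wild-type proteins the differences ran from -0.41 (Eomes) to 0.94 (Hand1), 4 positive and 6 negative, with a median of -0.05. Unadjusted p fell below 0.05 for 2 genes (12% of all genes), and the ranges did not overlap for Eomes alone (16% of all genes). With SUMO-deficient proteins they ran from -0.56 (Tfap2c) to 0.66 (Krt7), 5 in each direction, with a median of -0.01. Here 1 gene had an unadjusted p below 0.05 (12.5% of all genes), and the ranges overlapped for all 10 (18% of all genes did not overlap).

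The add-backs were then compared with each other, the comparison matched for transfection and sorting. The differences of KO+Mut from KO+WT ran from -0.49 (Hand1) to 0.28 (Krt7), 5 in each direction, with limma adjusted p = 1 for all 10 and 0 unadjusted p below 0.05 (3.04% of all genes). The ranges overlapped for all 10 genes, while they did not for 6.68% of all genes. The 95% interval of the difference was -0.38 to 0.47 for Cdx2, -0.17 to 0.59 for Eomes, -0.42 to 0.20 for Elf5, -0.19 to 0.35 for Gata3 and -0.49 to 0.17 for Tead4. It was -0.34 to 0.55 for Krt8, -0.37 to 0.23 for Krt18 and -0.19 to 0.74 for Krt7, so that a 2-fold difference in signal lay outside the interval for these 8 genes. For Elf5, read near the arrays' lower quartiles, low signals may be compressed, so its interval does not exclude a 2-fold difference in transcript. The same limit may hold for Cdx2 (3.73 to 4.55), read around the array medians (3.73 to 3.88), and for Gata3 (4.17 to 4.76), read above them. For Tfap2c (-1.18 to 0.79) and Hand1 (-1.20 to 0.22) a 2-fold lower level in KO+Mut lay inside it.

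Against parental cells, KO+WT differed by -0.51 (Tfap2c) to 0.71 (Hand1), with 2 unadjusted p below 0.05 (Gata3 and Hand1, 10.7% of all genes) and 2 genes whose ranges did not overlap (Gata3 lower and Krt7 higher; 15.9% of all genes). KO+Mut differed by -0.71 (Tfap2c) to 0.72 (Krt7), with 1 unadjusted p below 0.05 (Krt7, 11.5% of all genes) and 3 genes whose ranges did not overlap (Gata3 and Krt18 lower and Krt7 higher; 18% of all genes). The medians of the 10 genes were -0.13 and -0.07.

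Among the other genes of these pathways 1, Ascl2, passed the test, in KO+Mut against KO and against parental cells (1.27% and 0.992% of all genes). These lists held 18, 18, 18 and 30 measured genes, so that 1 call lies near the background. None of 18 measured genes of the Hippo pathway and its Tead partners passed in any comparison (limma, 0 to 3 at an unadjusted p below 0.05), with medians between -0.17 and -0.01. Amot, which holds Yap1 out of the nucleus, differed by -0.82 in KO+Mut against parental cells (limma adjusted p = 0.237, and 0.0382 with the replicate block), and Tead2 by -0.55 in the same comparison (adjusted p = 0.0894, and 0.0297 with the block). Neither fall was particular to KO+Mut. Amot read 5.03, 5.74 and 6.04 in parental, 4.25, 4.97 and 5.21 in KO and 4.82, 5.01 and 4.79 in KO+WT cells. Tead2 read 8.35, 8.35 and 8.22 in parental, 8.16, 7.95 and 8.10 in KO and 8.12, 7.90 and 7.60 in KO+WT cells. Among 18 other trophoblast regulators Ascl2, an imprinted factor needed for the spongiotrophoblast, rose in KO+Mut over KO by 0.84 (SE 0.13, adjusted p = 0.00501). It read 4.93, 5.19 and 4.97 in KO+Mut, 4.48, 4.66 and 4.30 in KO+WT, 4.22, 4.11 and 4.24 in KO and 4.42, 4.18 and 4.44 in parental cells, so that all KO+Mut arrays were above all others. The KO+Mut call held in 6 of 6 fits without 1 array (adjusted p 0.0122 to 0.038). KO+WT differed from KO by 0.29 (adjusted p = 0.399), and KO+Mut from KO+WT by 0.55 (SE 0.13, limma adjusted p = 1). Against parental cells KO+Mut was higher by 0.68 (adjusted p = 0.0247), a call that held in 1 of 6 such fits (highest adjusted p 0.128, leaving out KO+Mut replicate 2). Fgfr2, the receptor through which FGF4 maintains trophoblast stem cells, differed from parental cells by -1.30 in KO+WT and -1.17 in KO+Mut and passed there only with the replicate block (limma adjusted p = 0.0154 and 0.0166). It was already lower in KO cells at each replicate number (5.05, 5.98 and 6.31, against 6.17, 6.90 and 7.08 in parental cells).

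Of 18 genes of trophoblast differentiation and the placenta, 0 passed in any comparison (limma, 0 to 5 at an unadjusted p below 0.05), and the medians lay between -0.09 and 0.03. Peg10, a retrotransposon-derived gene of the placenta, differed by -0.55 in KO against parental cells (limma adjusted p = 0.4, and 0.0427 with the replicate block) and Phlda2, an imprinted inhibitor of placental growth, by 0.88 (adjusted p = 0.479, and 0.0186 with the block). At each replicate number both add-backs also lay below parental cells in Peg10 and above them in Phlda2. With the block 2 of the 18 passed in KO+WT and 2 in KO+Mut against parental cells (2.06% and 3.13% of all genes). Of 30 other simple-epithelial keratins and junction genes 0 passed (1 to 6 at an unadjusted p below 0.05). With the block 1 of the 30 passed in KO+WT against parental cells (2.06% of all genes). Against KO, 2 passed in KO+WT and 1 in KO+Mut (2.23% and 3.23% of all genes). Krt19, a keratin of simple epithelia, differed by 0.27 between KO+Mut and KO+WT (limma adjusted p = 1), and Ocln, a tight-junction protein, by 0.96 and 0.91 in KO+WT and KO+Mut against KO (adjusted p = 0.0857 and 0.0856).

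**Figure D4:**
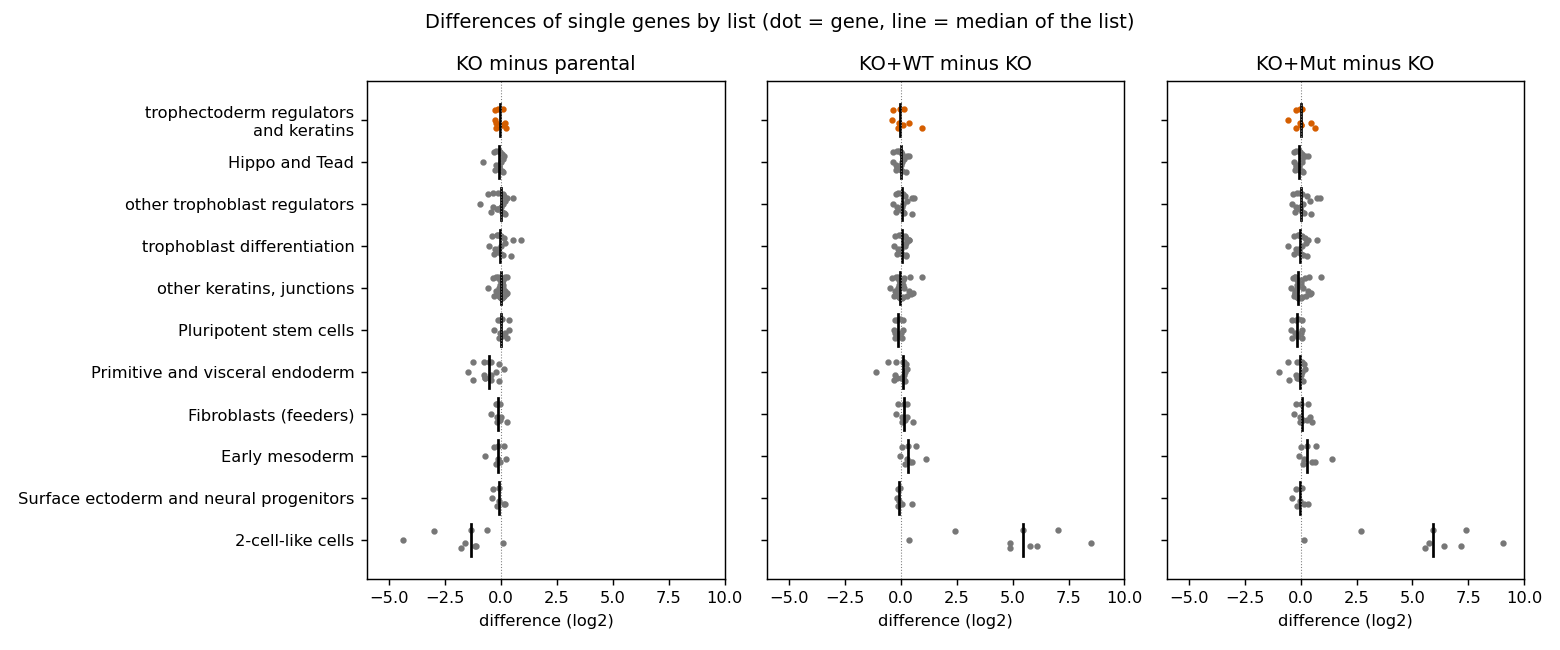
Differences in signal (log2) of single genes in KO minus parental, KO+WT minus KO and KO+Mut minus KO; each dot is a gene, the lines are list medians, and dots are spread vertically for legibility only. The trophectoderm genes lay between -0.56 and 0.94 in these comparisons. The 8 of 9 markers of 2-cell-like cells that passed the threshold rose by 2.42 to 9.04 with either add-back over KO.

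Pluripotency markers, which define the labelled cell type, read between 6.22 and 11.44 in all groups, above the arrays' upper quartiles (5.74 to 5.86). The lowest were Esrrb (6.22 to 6.77) and Pou5f1 (6.60 to 6.87). Nanog read 10.25 to 10.76, Sox2 9.35 to 9.90 and Zfp42 10.34 to 10.73 over the 12 arrays, and 0 of 12 such markers passed in any comparison (limma, 0 to 4 at an unadjusted p below 0.05). The list mean per array was 9.09 to 9.13 in parental, 9.12 to 9.18 in KO, 9.02 to 9.07 in KO+WT and 8.93 to 9.03 in KO+Mut. Against the shared KO arrays, 9 of 12 were negative in KO+WT (median -0.13) and 8 of 12 in KO+Mut (median -0.16). Against parental cells 6 and 7 were negative (medians 0.02 and -0.03). With the replicate block 2 of the 12 passed in KO+Mut against parental cells (3.13% of all genes). They were Sox2 at -0.40 (limma adjusted p = 0.0344) and Fgf4, the growth factor that acts on trophoblast, at -0.53 (adjusted p = 0.021). In KO+Mut against KO, whose numbers were not taken to pair them, 2 of the 12 also passed with the block (3.23% of all genes). The mean of the 10 fibroblast markers per array was 4.50 to 4.63 in parental, 4.42 to 4.47 in KO, 4.52 to 4.61 in KO+WT and 4.52 to 4.58 in KO+Mut. Of the 10, 9 were negative in KO against parental cells (median -0.15). Against KO, 8 were positive in KO+WT (median 0.13) and 6 in KO+Mut (median 0.06). Against parental cells 6 were positive in KO+WT and 5 in KO+Mut. In the main test 0 of the 10 fibroblast markers passed (1 to 3 at an unadjusted p below 0.05). With the block 1 of the 10, the intermediate filament gene Vim, was lower than in parental cells in KO, KO+WT and KO+Mut (-0.45, -0.41 and -0.50, limma adjusted p = 0.0387, 0.0314 and 0.00999). The blocked shares over all genes in these comparisons were 0.618%, 2.06% and 3.13%. The block also gave 1 call among the 10 in KO+Mut against KO (3.23% of all genes). Among 7 measured markers of surface ectoderm and neural progenitors 0 passed (0 to 1). With the block 1 did, Grhl2 in KO+Mut against parental cells (-0.76, limma adjusted p = 0.0448), beside 3.13% of all genes.

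Across the 12 arrays the genes did not form 1 block of shared pattern. The highest correlations between them were those of Elf5 with Gata3 (r = 0.72), Elf5 with Krt18 (0.66) and Gata3 with Krt18 (0.58), and the lowest was that of Cdx2 with Krt18 (-0.50), over arrays that share group, replicate number and normalization. Among named genes above the median signal, the patterns most like that of Tfap2c were those of Ezh1 (r = 0.97), Mdc1 (0.96) and Arhgef2 (0.96), and 80 genes had r above 0.9. For Cdx2 they were Rfesd (0.89), Rbm39 (0.87) and Myl4 (0.86), for Krt8 Uqcc2 (0.90), Itm2a (0.89) and Hcn2 (0.89), and for Krt18 Bend5 (0.81), Gatd3a (0.80) and Epop (0.79), none above 0.9 in these 3 cases. The replicate number accounted for 69.3% of the sum of squares of Krt8, 52.6% of that of Cdx2 and 43.7% of that of Tead4, more than the group did in each (5.14%, 9.12% and 30.3%). For Hand1 number and group took 43.0% and 43.2%, and for Krt7 6.11% and 59.5%.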

How the data were processed

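Labelled cDNA of 12 samples was hybridised to Affymetrix arrays, 3 per group. The authors deposited normalized log2 signals, 1 per probe set and array; per the submitters' processing notes they used the Transcriptome Analysis Console, and they name no version. Background correction, summarization and build: not given in the sources used here. The log2 scale was read from the values, and any compression of low signals carries into the differences. The number of arrays limits the precision. Of 41345 probe sets, 23521 had 1 gene symbol in the platform annotation; the highest of several stood for a gene (22180 genes).

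Group differences came from limma 3.58.1 under R 4.3.3, by lmFit and eBayes on all 12 arrays with 1 mean per group, two-sided, with Benjamini-Hochberg adjustment over all genes and a threshold of 0.05. The script was tested on simulated data. Figures were drawn with matplotlib 3.10.9. The genes, lists and tests were chosen with earlier results of these data known. Named were the 10 genes, list genes past the threshold or of small p, and the 3 patterns most like those of Cdx2, Tfap2c, Krt8 and Krt18. Alternatives were a replicate block, other scalings, a low-signal filter, variance models, 6-array fits, averaged probe sets, array weights and leaving out each array.

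Titles number the replicates 1 to 3 without saying what a number stands for. Deviations from group means of same-numbered arrays correlated above 0.1 in all 3 pairs of every comparison but those of the add-backs with KO, where replicate 2 reached 0.06 and 0.08, so pairing was taken from the data for the other 4 (KO+Mut and parental: 0.33, 0.13 and 0.36).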

Additional observations from a re-analysis of the deposited data

How the results depend on the processing

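None of the 10 genes passed in 831 of 834 alternative fits of single differences, among them all 360 that left out 1 array (smallest adjusted p 0.0795, Hand1 in KO+WT against KO without KO+WT replicate 3); outside the replicate block the other settings gave adjusted p of 0.0573 or more. With the replicate number as a block the count of genes past the threshold was 1 in place of 0 in 3 comparisons: KO+WT against KO (Hand1, 0.94, limma adjusted p = 0.0424), KO+Mut against KO (Tfap2c, -0.56, 0.0493) and KO+Mut against parental cells (Tfap2c, -0.71, 0.0202). The first 2 of these joined arrays whose numbers were not taken to pair them, and the third took its block from all 12 arrays, those of KO included. In the other 3 comparisons the count stayed at 0 with the block. Over all genes the block gave 137, 494, 716, 0, 458 and 695 calls, against 53, 184, 282, 0, 122 and 220 without it, in the order KO against parental, KO+WT and KO+Mut against KO, KO+Mut against KO+WT, and KO+WT and KO+Mut against parental cells. Without 1 array these counts ran from 19 to 31, 86 to 164, 119 to 207, 0 to 0, 51 to 131 and 104 to 159, and fits of the 6 arrays compared or other settings gave 27 to 139, 75 to 494, 207 to 716, 0 to 0, 52 to 458 and 186 to 695. Centring each array on its median moved the share of higher calls from 88% to 75.2% for KO+WT against KO, from 87.9% to 72.9% for KO+Mut against KO, from 65.9% to 52.8% for KO+Mut against parental cells, from 58.2% to 48.8% for KO+WT against parental cells, where most calls were then lower, and from 15.1% to 18.6% for KO against parental cells. The Foxf1 calls in KO+WT and KO+Mut against KO were lost with that centring (limma adjusted p = 0.0952 and 0.0842) and with repeated quantile normalization (0.0522 and 0.0508). Fits of the 6 arrays compared lost Foxf1 in KO+WT against KO (0.111), Lama1 in KO+WT and KO+Mut (0.146 and 0.064), Lamb1 in KO+WT (0.124) and Ascl2 in KO+Mut (0.061), the last 3 genes against parental cells. The low signal of Elf5, near the lower quartile, limits what could be seen for that gene. The cause of these changes was not tested.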
